A study of Mus musculus with 9 samples.

Results

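The genes described here act on collagen after it has been translated. They are 10 mouse genes fixed by symbol, Lox, Loxl1, Loxl2, Loxl3, Loxl4, Pcolce, Pcolce2, P4ha1, Plod1 and Plod2, and all 10 were found among the 40879 gene symbols of the deposited tables. Of these symbols, 11980 had enough counts to be tested, and they include 9 of the 10 genes, since Loxl4 was too low. Gene counts came from 9 bulk libraries made by sequencing the polyadenylated ends of transcripts (QuantSeq 3′ mRNA-Seq). Each library was 1 construct of C2C12 cells, a mouse myoblast line of WT genotype, embedded in extracellular matrix derived from muscle tissue, grown for 2 days and then kept for 10 days in differentiation medium with 10% equine serum. The 3 irradiated constructs had been given 20 Gy of X-rays in 1 exposure, the submitters' means of inducing senescence. The 3 cocultured constructs were not irradiated but shared their dish with an irradiated construct, so that they were exposed to what it secreted. The 3 normal constructs were neither irradiated nor placed with an irradiated construct.

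As a model, these constructs hold a single cell line and an added matrix made of tissue, and RNA reports what the cells transcribed, not the collagen or the enzymes already in the matrix. Apart from the coculture, constructs of the same condition were kept in pairs in a dish, and the labels do not say which constructs shared one, so p-values here speak only of the spread among the sampled constructs, which may be technical. The design text counts 2 constructs each for the irradiated and the normal condition, while the labels give 3 libraries for each, and all were used. Fewer cells of a type and less RNA per cell cannot be told apart in bulk RNA.

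Fibrillar collagen is made as procollagen, whose chains are modified in the endoplasmic reticulum before they fold into a triple helix. P4ha1 is a catalytic subunit of prolyl 4-hydroxylase, whose product stabilises the helix, and Plod1 and Plod2 are lysyl hydroxylases, Plod1 acting mainly on helical lysines and Plod2 on those of the telopeptides. Outside the cell the C-terminal propeptide is removed by Bmp1 and related proteases, whose activity the enhancer proteins encoded by Pcolce and Pcolce2 raise. Lox and the related enzymes Loxl1 to Loxl4 are copper-dependent oxidases that turn lysines and hydroxylysines of collagen and elastin into the aldehydes from which crosslinks form. In muscle these steps contribute to the stiffness of the connective tissue around the fibres.

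The paired enhancer genes Pcolce and Pcolce2 showed the most opposed pattern, so the 250 bases upstream of their annotated starts are shown, from the RefSeq promoter table of build GRCm38.p6, which held 5 of the 10 genes. Pcolce lies on the minus strand with its upstream window at chr5:137611405-137611654, and Pcolce2 lies on the plus strand at chr9:95637378-95637627. Both sequences run 5′ to 3′ toward the start, and capitals mark the match to the GC box letters GGGCGG, searched on both strands and found here as the reverse complement.

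Pcolce: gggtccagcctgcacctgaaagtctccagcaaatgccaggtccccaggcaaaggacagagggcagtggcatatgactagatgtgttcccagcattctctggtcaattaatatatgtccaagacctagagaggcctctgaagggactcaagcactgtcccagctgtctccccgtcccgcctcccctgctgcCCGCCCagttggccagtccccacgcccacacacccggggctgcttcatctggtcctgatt
Pcolce2: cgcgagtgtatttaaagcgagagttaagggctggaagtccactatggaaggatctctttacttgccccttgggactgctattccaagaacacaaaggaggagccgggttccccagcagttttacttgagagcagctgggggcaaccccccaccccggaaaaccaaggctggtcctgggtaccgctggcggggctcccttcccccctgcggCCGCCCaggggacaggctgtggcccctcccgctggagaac

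The windows were alike in base composition, with 58.8% G or C upstream of Pcolce and 61.2% upstream of Pcolce2. Each held 1 match to GGGCGG, which begins at -60 in Pcolce and at -40 in Pcolce2 relative to the start, and 32.7% of the 32851 promoter windows of this length in the table hold such a match. Neither held TATAAA, the TATA box letters found in 12.4% of the windows, nor ACGTG, the core letters of the hypoxia response element found in 16.6%. The E-box letters CANNTG, present in 66.2% of windows, had 6 matches upstream of Pcolce and 1 upstream of Pcolce2. These matches describe the letters in the windows and no binding was measured.

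The libraries held 4840993 to 8290468 counts, and irradiated 2 and 3 had the fewest genes with a count, 8306 and 8654, against 11126 in irradiated 1, 10002 to 11851 in cocultured and 11329 to 14159 in normal libraries. Among 2963 genes chosen by an average of 20 to 50 CPM (counts per 1000000 counts) in the cocultured and normal libraries, a choice that itself favours zeros in irradiated ones, 5.23%, 20.5% and 17.1% had no count in irradiated 1, 2 and 3, against 0.371% to 3.54% in cocultured and 0.0675% to 3.24% in normal libraries. Mitochondrially encoded genes took 10.9% to 21.6% of counts in irradiated, 10.8% to 12.5% in cocultured and 5.76% to 29.7% in normal libraries, and normal 3 and irradiated 1 were highest. Those libraries were also highest for the summed level of 6 myotube genes (Myh3, Myh8, Acta1, Ckm, Tnnt3 and Mylpf). The sum was 6581 to 46133 CPM in irradiated, 3443 to 6899 CPM in cocultured and 3349 to 77836 CPM in normal constructs. Acta1, Ckm, Tnnt3 and Mylpf were each highest in normal 3 and irradiated 1, while Myh3 and Myh8 were not. Myh3 was lowest of all in irradiated 1, at 60.5 CPM, and was at 98.5 CPM in normal 3. Of 7 myoblast genes 6 were detected in irradiated constructs, where Myf5 was at 0, and 7 in cocultured and in normal ones, with sums of 1136 to 1995, 996 to 1455 and 994 to 1879 CPM. The 7 fibroblast genes summed to 5023 to 7872 CPM in irradiated, 6403 to 10275 CPM in cocultured and 6317 to 11146 CPM in normal constructs, with Fap at 0 in normal ones. Most of each sum was Dcn, at 4731 to 10960 CPM over all libraries, while Thy1 was at most 8.41 CPM. Endothelial, leukocyte, adipocyte and Schwann cell lists each summed to at most 42.7 CPM in any library. Chondrocyte and osteoblast genes, of which Acan and Bglap were at 0, summed to 169 to 290 CPM in irradiated, 249 to 309 CPM in cocultured and 182 to 276 CPM in normal constructs. The part of these differences in the results below was not tested, apart from the values given without a library.

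Irradiated constructs were set against normal ones to ask how the treatment that induces senescence bears on these genes. Pcolce was higher and Pcolce2 and Loxl2 were lower, with no overlap between the groups, 1 higher and 2 lower among the 9 tested, against 3.94% of all genes higher and 11.8% lower without overlap. The hydroxylases P4ha1, Plod1 and Plod2, the main oxidase Lox, and Loxl1 and Loxl3 overlapped between the groups. No gene among the 9 tested passed at an adjusted p under 0.05 in edgeR (quasi-likelihood test, p-values adjusted by Benjamini-Hochberg over all genes tested), where 0.0584% of all genes passed. At an unadjusted p under 0.05 there were 3 of the 9, 1 higher and 2 lower, against 1.59% of all genes higher and 8.7% lower. DESeq2 called the same 3 genes, Pcolce, Pcolce2 and Loxl2, and 3.71% of all genes. With limma voom 0 of the 9 and 0.209% of all genes passed. The median log2 fold change of the 9 was -0.45, against -0.21 over all genes tested.

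**Figure D1:**
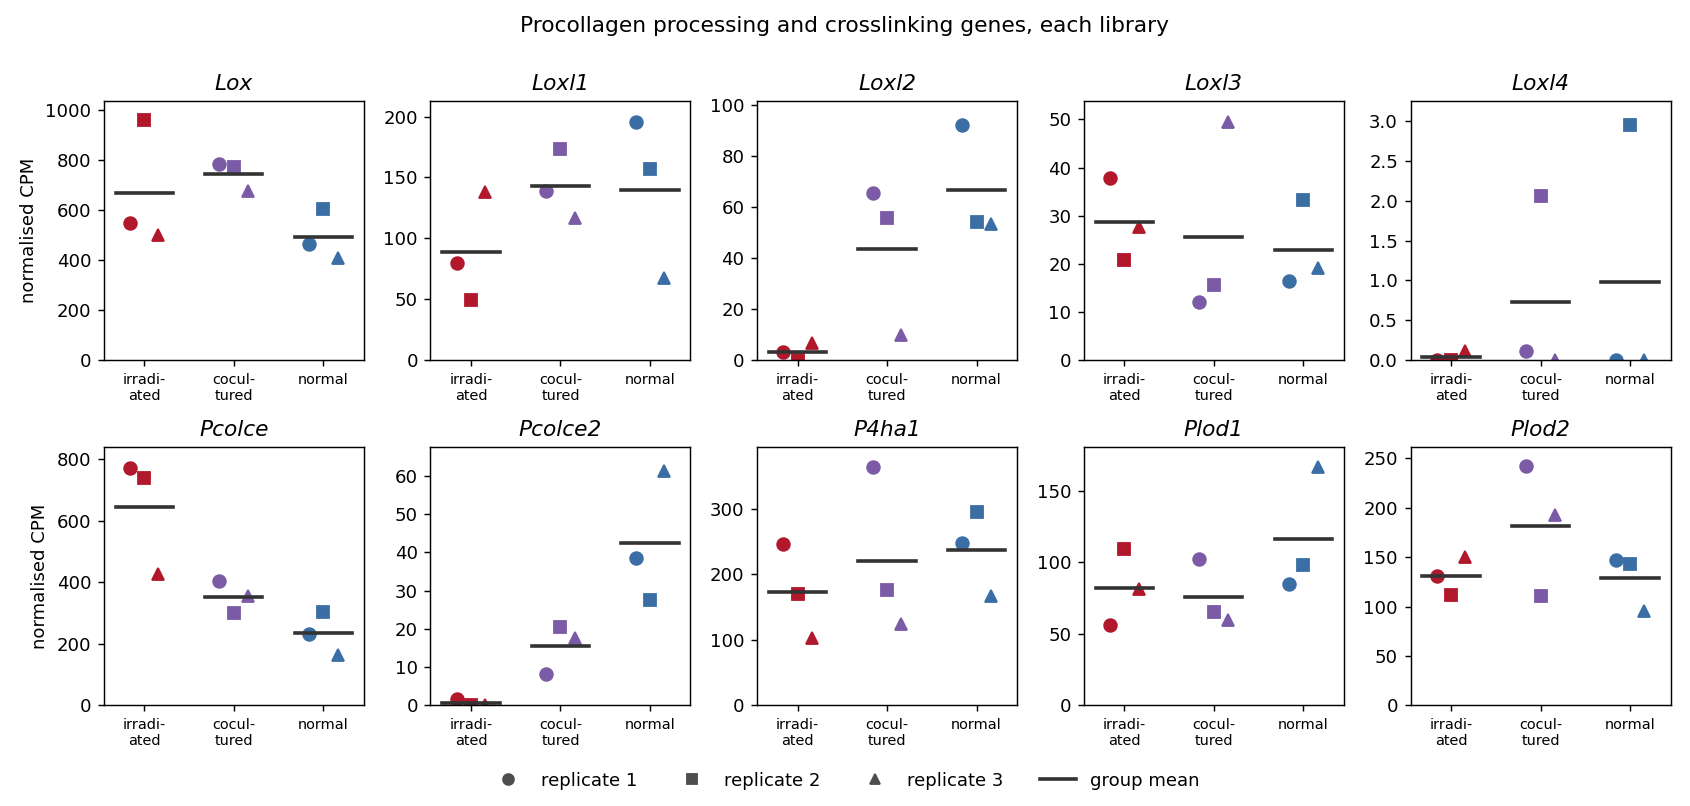
Normalised level in CPM (vertical axes, a scale for each gene) of the 10 genes in the 9 libraries, with irradiated, cocultured and normal constructs from left to right. Each library is a point and each group mean is a line. Pcolce2 lay at 0 to 1.70 CPM in irradiated constructs, below the 27.5 to 61.3 CPM of normal ones, while Pcolce lay at 427 to 771 CPM against 165 to 305 CPM.

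Pcolce encodes the enhancer of procollagen C-proteinase most widely found in connective tissue. Its normalised level, in CPM scaled by TMM factors as for every gene below, was 771, 740 and 427 in irradiated 1, 2 and 3, 406, 300.4 and 354 in cocultured 1, 2 and 3, and 233, 305 and 165 in normal 1, 2 and 3. Every irradiated library lay above every cocultured and every normal one, and cocultured 2 lay just under normal 2, so that those groups overlapped. The means were 646 ± 190 CPM in irradiated, 354 ± 52.7 CPM in cocultured and 234 ± 70.1 CPM in normal constructs (SD, n = 3 each). The log2 fold change was 1.46 ± 0.35 (SE) for irradiated against normal, with an approximate 95% interval of 0.71 to 2.22 and an edgeR adjusted p of 0.165 (unadjusted 0.00106).

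The log2 fold change of Pcolce for cocultured against normal constructs was 0.59 ± 0.34 (interval -0.15 to 1.33, edgeR adjusted p = 1). On library totals, without TMM factors, those groups did not overlap, at 362 to 486 CPM in cocultured and 91.1 to 277 CPM in normal constructs. On that scale the median log2 fold change of all genes also moved by 0.53, so this separation is not particular to Pcolce. For irradiated against cocultured constructs the log2 fold change of Pcolce was 0.87 ± 0.34 (interval 0.13 to 1.61, edgeR adjusted p = 0.493). The order of the means was therefore irradiated, cocultured, normal, and the step between the last pair was within the spread. In the comparison with normal constructs DESeq2 gave Pcolce an adjusted p of 5.19e-04, and with each library left out in turn its log2 fold change was 1.27 to 1.70. With irradiated 2 and 3, the libraries with most genes at 0, left out together, it was 1.72 (edgeR adjusted p = 0.0381). That choice was made after the data were seen, and it leaves irradiated 1 as the only irradiated library, which is assumed to vary as the other groups do.

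Pcolce2, the second enhancer gene, went the other way at a much lower count. It had 8, 0 and 0 counts in irradiated 1, 2 and 3, against 76, 198 and 156 in cocultured and 187, 121 and 224 in normal libraries. On the normalised scale this was 1.70, 0 and 0 CPM in irradiated, 8.14, 20.5 and 17.6 CPM in cocultured and 38.4, 27.5 and 61.3 CPM in normal constructs. The 3 groups did not overlap, with normal constructs highest and irradiated ones lowest. All of the irradiated counts came from irradiated 1, and the limit that a count of 0 allows, taken as 3 counts in a library, was 0.282 to 0.821 CPM over the 9 libraries.

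The summed Pcolce2 level was 123-fold lower in irradiated than in normal constructs, with an exact counting interval of 61.8 to 286, and 46.0-fold lower than in cocultured ones, with an interval of 23.2 to 107. These intervals cover counting error only. The fitted log2 fold change was -6.27 ± 1.99 against normal (edgeR adjusted p = 0.40, unadjusted 0.00763) and -4.82 ± 1.86 against cocultured constructs (edgeR adjusted p = 0.493, unadjusted 0.0227). DESeq2 called it in both, with adjusted p-values of 0.00132 and 0.0307. Without irradiated 1 edgeR called it lower against both (adjusted p = 0.0282 and 0.0491), but no irradiated count is then left. Without irradiated 2 the log2 values were -5.67 against normal and -4.22 against cocultured constructs, and without irradiated 3 they were -5.69 and -4.23. Pcolce2 passed the filter on low counts through the cocultured and normal libraries, so its having been tested already required it to be higher there.

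Between cocultured and normal constructs, Pcolce2 had a log2 fold change of -1.46 ± 1.60 (interval -4.91 to 1.99, edgeR adjusted p = 1), although the groups did not overlap. The fit shares 1 estimate of the spread among all 3 groups. On library totals the ranges still did not overlap but nearly met, at 9.75 to 24.6 CPM in cocultured and 25.0 to 37.1 CPM in normal constructs.

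Within a library the share of Pcolce2 in the summed counts of Pcolce and Pcolce2 needs no scaling between libraries. It was 0.221% in irradiated 1 (exact Clopper-Pearson 95% interval 0.0953% to 0.434%), 0 of 7864 counts in irradiated 2 and 0 of 3643 in irradiated 3. Read as 3 counts of the total, these zeros allow shares of up to 0.0381% and 0.0823%, and the exact intervals end at 0.0469% and 0.101%. It was 1.97%, 6.38% and 4.74% in cocultured 1, 2 and 3, and 14.1%, 8.27% and 27.1% in normal 1, 2 and 3. The 3 groups did not overlap in this share, which was lowest in irradiated, between in cocultured and highest in normal libraries. Both genes enter it, and no test was run on it beyond those of the genes.

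**Figure D2:**
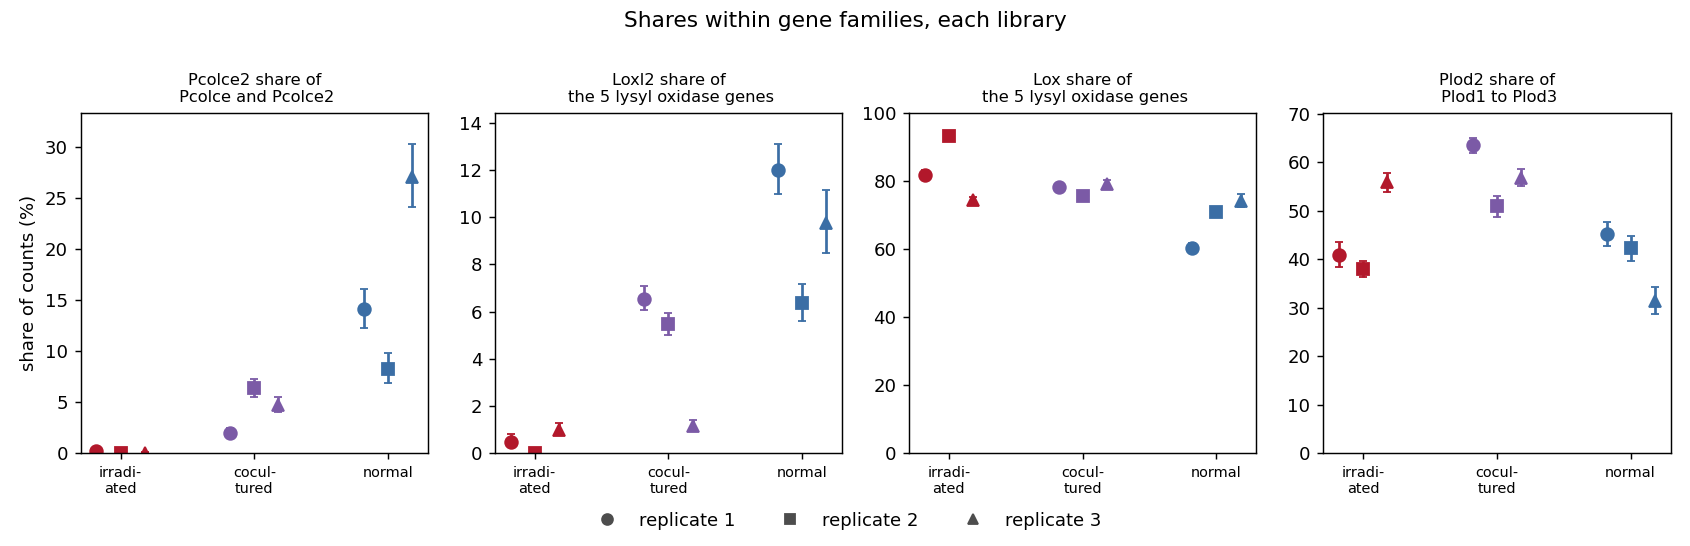
Share in percent of family counts (vertical axes) of Pcolce2 among the enhancer genes, Loxl2 and Lox among the 5 lysyl oxidase genes, and Plod2 among Plod1, Plod2 and Plod3, for each irradiated, cocultured and normal library, with exact 95% intervals for counting error. The Pcolce2 share was at most 0.221% in irradiated, 1.97% to 6.38% in cocultured and 8.27% to 27.1% in normal libraries.

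Loxl2 encodes a lysyl oxidase known for crosslinking the type IV collagen of basement membranes, and it is also found in the nucleus. It had 15, 0 and 57 counts in irradiated 1, 2 and 3, against 611, 537 and 86 in cocultured and 448, 238 and 195 in normal libraries. Normalised levels were 3.19, 0 and 6.69 CPM in irradiated, 65.5, 55.5 and 9.72 CPM in cocultured and 92.0, 54.1 and 53.4 CPM in normal constructs. All irradiated libraries lay below all others, while the cocultured ones overlapped the normal ones, with cocultured 3 far under the other two cocultured libraries.

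The summed Loxl2 level was 22.6-fold lower in irradiated than in normal constructs (exact counting interval 17.7 to 29.1) and 14.7-fold lower than in cocultured ones (11.6 to 18.9), for counting error only. Of the 72 irradiated counts 57 were in irradiated 3. The fitted log2 fold change was -4.33 ± 1.38 against normal (interval -7.31 to -1.36, edgeR adjusted p = 0.401, unadjusted 0.00776). It was -3.72 ± 1.34 against cocultured constructs (interval -6.62 to -0.83, edgeR adjusted p = 0.493, unadjusted 0.0156). Without irradiated 3 the log2 values were -5.45 against normal and -4.84 against cocultured constructs, and without irradiated 2 they were -3.74 and -3.13. DESeq2 called Loxl2 against normal constructs (adjusted p = 0.0166) and not against cocultured ones. As with Pcolce2, Loxl2 passed the low-count filter through the groups where it was high.

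Loxl2 and Pcolce2 were both at 0 in irradiated 2, the library with the largest share of intermediate genes at 0, and the part of that gene coverage in their values was not tested. With irradiated 1 as the only irradiated library, the log2 fold change of Loxl2 was -4.37 against normal (edgeR adjusted p = 0.0170) and -3.77 against cocultured constructs (edgeR adjusted p = 0.0284), under the same assumption on the lone library. Between cocultured and normal constructs, Loxl2 had a log2 fold change of -0.61 ± 1.20 (interval -3.20 to 1.98, edgeR adjusted p = 1).

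Lox encodes the oxidase that gives the family its name and acts on fibrillar collagen and elastin. Its level was 549, 959 and 501 CPM in irradiated 1, 2 and 3, 783, 773 and 676 CPM in cocultured and 463, 605 and 406 CPM in normal libraries. The cocultured libraries were tightly grouped and all lay above the normal ones, and the irradiated libraries overlapped both groups, with irradiated 2 the highest of the 9. The coefficient of variation was 37.7% in irradiated, 7.92% in cocultured and 20.9% in normal constructs. The means were 670 ± 252, 744 ± 58.9 and 492 ± 103 CPM in irradiated, cocultured and normal constructs (SD, n = 3 each).

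The log2 fold change of Lox was 0.60 ± 0.33 for cocultured against normal constructs (interval -0.12 to 1.32, edgeR adjusted p = 1, unadjusted 0.0955). It was 0.45 ± 0.33 for irradiated against normal (interval -0.27 to 1.16, edgeR adjusted p = 0.893) and -0.15 ± 0.33 for irradiated against cocultured constructs (interval -0.87 to 0.56, edgeR adjusted p = 1). None of these passed. The value against cocultured constructs took the other sign, at 0.02, without irradiated 3.

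Loxl1, an oxidase tied to elastic fibre assembly, had 80.1, 49.0 and 138 CPM in irradiated, 139, 173 and 117 CPM in cocultured and 195, 157 and 67.6 CPM in normal libraries. All groups overlapped. The log2 fold change was -0.65 ± 0.48 for irradiated against normal (interval -1.68 to 0.38), 0.03 ± 0.48 for cocultured against normal (-1.0 to 1.06) and -0.68 ± 0.48 for irradiated against cocultured constructs (-1.72 to 0.35), with edgeR adjusted p-values of 0.881, 1 and 0.752.

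Loxl3, known from mouse mutants for roles in palate, spine and muscle formation, had 37.9, 20.7 and 27.7 CPM in irradiated, 12, 15.5 and 49.4 CPM in cocultured and 16.4, 33.2 and 19.2 CPM in normal libraries. The groups overlapped, and the cocultured libraries spread most, with a coefficient of variation of 80.6% that rests on cocultured 3. Its log2 fold changes were 0.33 ± 0.99, 0.16 ± 0.99 and 0.17 ± 0.99 for irradiated against normal, cocultured against normal and irradiated against cocultured constructs, with an edgeR adjusted p of 1 in each. Loxl4 was scarcely detected, with 0, 0 and 1 counts in irradiated, 1, 20 and 0 in cocultured and 0, 13 and 0 in normal libraries, and it was not tested.

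Within the family, Loxl2 made up 0.477%, 0% and 0.993% of lysyl oxidase counts in irradiated libraries, 6.55%, 5.45% and 1.14% in cocultured and 12%, 6.35% and 9.76% in normal ones. The value of 0 is 0 of 10944 counts, which allows up to 0.0274% when read as 3 counts, with an exact interval that ends at 0.0337%. Lox itself made up 81.9%, 93.2% and 74.4% in irradiated, 78.3%, 75.8% and 79.4% in cocultured and 60.4%, 71.0% and 74.4% in normal libraries. The Lox shares of cocultured libraries all lay above the normal ones, and the lowest irradiated value was level with the highest normal one. Loxl1 made up 4.76% to 20.5% in irradiated, 13.7% to 17.0% in cocultured and 12.4% to 25.5% in normal libraries, with overlap among all groups. These shares compare a gene with itself between libraries, since the counts of different genes also depend on how well each transcript end is captured.

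**Figure D3:**
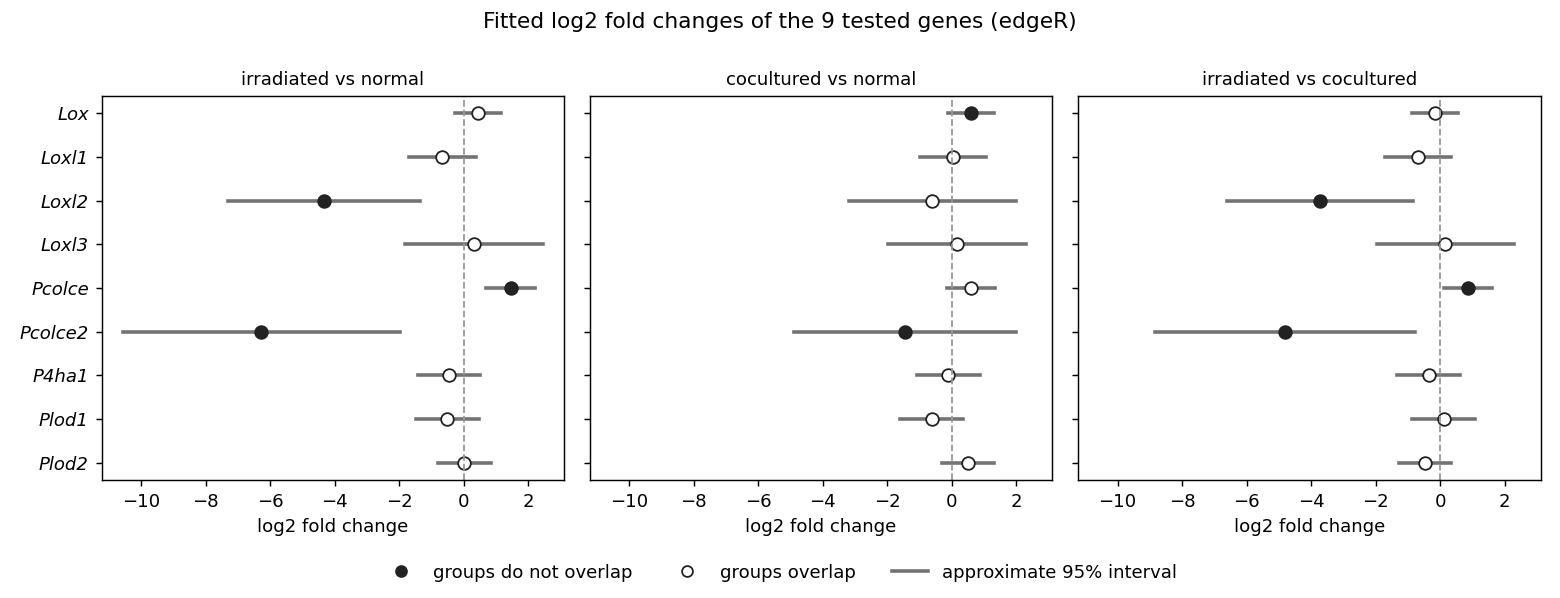
Log2 fold change of the 9 tested genes with approximate 95% intervals (horizontal axes) for irradiated against normal, cocultured against normal and irradiated against cocultured constructs, with filled points where the groups do not overlap. Pcolce was at 1.46, Loxl2 at -4.33 and Pcolce2 at -6.27 for irradiated against normal constructs, and the intervals of the other 6 genes in that comparison include 0.

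The intracellular hydroxylases differed less between groups than Pcolce2 or Loxl2. P4ha1 had 245, 170 and 103 CPM in irradiated, 363, 175 and 124 CPM in cocultured and 248, 295 and 167 CPM in normal libraries. The groups overlapped, and the spread among cocultured libraries alone, with a coefficient of variation of 57.1%, covered most of the range. Its log2 fold change was -0.45 ± 0.45 for irradiated against normal (interval -1.43 to 0.52), -0.10 ± 0.45 for cocultured against normal (-1.07 to 0.87) and -0.35 ± 0.45 for irradiated against cocultured constructs (-1.32 to 0.62), with edgeR adjusted p-values of 1, 1 and 0.995. P4ha1 made up 83.5%, 72.3% and 49.7% of the counts of P4ha1, P4ha2 and P4ha3 in irradiated, 73.6%, 60.2% and 66.4% in cocultured and 66.5%, 79.2% and 70.2% in normal libraries, again with overlap.

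Plod1 had 56.2, 109 and 81.3 CPM in irradiated, 103, 65.4 and 59.7 CPM in cocultured and 84.6, 98.4 and 167 CPM in normal libraries. Normal 3 was the highest library, and the groups overlapped. Its log2 fold change was -0.50 ± 0.45 for irradiated against normal (interval -1.48 to 0.47), -0.62 ± 0.45 for cocultured against normal (-1.60 to 0.36) and 0.12 ± 0.45 for irradiated against cocultured constructs (-0.86 to 1.09), with an edgeR adjusted p of 1 in each. On library totals the values against normal constructs took the other sign, at 0.09 for irradiated and 0.04 for cocultured constructs, where the median of all genes also moved by 0.37 and 0.53.

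Plod2 had 131, 112 and 150.1 CPM in irradiated, 242, 111 and 193 CPM in cocultured and 147, 142 and 95.5 CPM in normal libraries. Irradiated and normal constructs covered nearly the same range, and cocultured 1 and 3 lay above every library of the other groups. The log2 fold change was 0.03 ± 0.38 for irradiated against normal (interval -0.78 to 0.84), 0.50 ± 0.38 for cocultured against normal (-0.31 to 1.31) and -0.47 ± 0.38 for irradiated against cocultured constructs (-1.29 to 0.34), with edgeR adjusted p-values of 1, 1 and 0.840. The share of Plod2 among the counts of Plod1, Plod2 and Plod3, the lysyl hydroxylase genes, was 40.9%, 37.9% and 55.9% in irradiated, 63.5%, 50.9% and 56.9% in cocultured and 45.3%, 42.2% and 31.4% in normal libraries. In this share, all cocultured libraries lay above all normal ones, and the irradiated ones overlapped both.

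Cocultured constructs were set against normal ones to ask what exposure to an irradiated neighbour does to a construct that was not irradiated. Lox was higher and Pcolce2 lower with no overlap between the groups, and the other 7 tested genes overlapped. No gene among the 9 passed in edgeR, as for 0% of all genes. DESeq2 and limma voom also called 0 of them, against 0.701% of all genes by DESeq2 and 0% by limma voom. At an unadjusted p under 0.05 there were 0 of the 9, against 0.851% of all genes higher and 3.26% lower. Over all genes, 5.66% were higher and 7.51% lower with no overlap. The median log2 fold change of the 9 was 0.03, against -0.07 over all genes tested.

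Irradiated constructs were also set against cocultured ones, which had not received the dose. Pcolce was higher and Pcolce2 and Loxl2 lower without overlap, 1 higher and 2 lower among the 9, against 3.9% of all genes higher and 10.6% lower without overlap. No gene among the 9 passed in edgeR, where 0.0334% of all genes passed. The same 3 had an unadjusted p under 0.05, against 2.25% of all genes higher and 7.33% lower. DESeq2 called 1, which was Pcolce2, against 3.95% of all genes, and limma voom called 0, against 0.876%. Any pair of the 3 comparisons shares a group of libraries, so a gene that appears in both has not been measured again.

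The rest of the pathway was read through 52 genes in 6 lists, of which 46 were tested. None was called by edgeR in any of the 3 comparisons. For irradiated against normal constructs, 5 of the 46 had an unadjusted p under 0.05, 1 higher and 4 lower, against 1.59% of all genes higher and 8.7% lower. DESeq2 called 3 of the 46 and limma voom 1, against 3.71% and 0.209% of all genes. For irradiated against cocultured constructs, 4 had an unadjusted p under 0.05, 1 higher and 3 lower, against 2.25% of all genes higher and 7.33% lower. DESeq2 and limma voom called 3 each, against 3.95% and 0.876% of all genes. For cocultured against normal constructs all of these counts were 0. In the comparisons of irradiated constructs, the shares at an unadjusted p under 0.05 were near those of all genes. The median log2 fold change of the 46 was -0.11, 0.05 and -0.06 for irradiated against normal, cocultured against normal and irradiated against cocultured constructs.

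**Figure D4:**
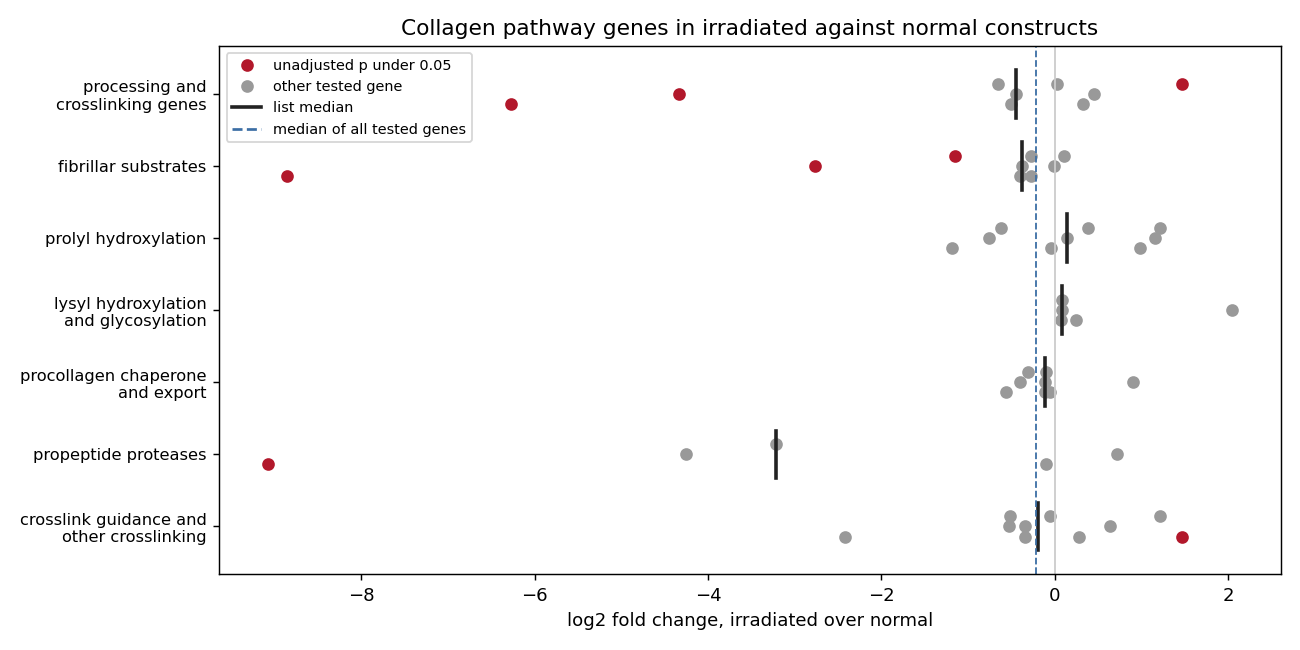
Log2 fold change for irradiated against normal constructs (horizontal axis) of the 9 tested processing and crosslinking genes (top row) and the tested genes of the 6 pathway lists (other rows), a point for each gene, red where the unadjusted p is under 0.05, with each list's median and a dashed line at the median of all genes, -0.21. The fibrillar substrates hold 3 red points, all below 0, and the prolyl hydroxylation and lysyl hydroxylation lists hold none, while 2 genes with no irradiated count, the leftmost points of the substrate and protease rows, stand at fitted values.

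The substrates of these enzymes, 9 fibrillar collagen and elastin genes, had 8 negative and 1 positive log2 fold changes for irradiated against normal constructs, with a median of -0.38. Of all 11980 genes tested, 6973 were negative and 5007 positive, with a median of -0.21. The median of the substrates is the same with Col11a1, which had no irradiated count, set at its bound. Col11a1 passed the low-count filter through the other groups. Col5a2, a chain of the type V collagen that nucleates fibrils, had 288, 271 and 277 CPM in irradiated, 522, 659 and 619 CPM in cocultured and 877, 452 and 520.2 CPM in normal libraries. The irradiated libraries were level with one another and below all others. The log2 fold change was -1.15 ± 0.32 against normal (edgeR adjusted p = 0.291, unadjusted 0.00352) and -1.11 ± 0.32 against cocultured constructs (edgeR adjusted p = 0.428). DESeq2 called both, and limma voom called only that against cocultured constructs.

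The main collagen chains did not separate the groups in the comparison with normal constructs. Col1a1 had 166, 560.3 and 89.1 CPM in irradiated, 185, 206 and 51.9 CPM in cocultured and 61.0, 182 and 581 CPM in normal libraries, with a log2 fold change of -0.01 ± 0.79 for irradiated against normal. That value was positive under DESeq2, limma voom, RLE and upper quartile factors and library totals. Col1a2 had 742, 1375 and 886 CPM in irradiated, 1185, 1084 and 837 CPM in cocultured and 1121, 999 and 678 CPM in normal libraries (0.10 ± 0.34). Col3a1 had 2534, 4251 and 4997 CPM in irradiated, 5126, 5897 and 5532 CPM in cocultured and 6392, 4099 and 3751 CPM in normal libraries (-0.27 ± 0.39), and here the cocultured libraries all lay above the irradiated ones.

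Of 8 genes for proteases that cut propeptides, 5 were tested, and for irradiated against normal constructs 1 was positive and 4 were negative. Adamts14, which removes the N-terminal propeptide, had no count in any irradiated library, against 11.8, 17.4 and 19.4 CPM in cocultured and 8.42, 11.8 and 7.94 CPM in normal ones. Set against 3 counts over the irradiated group, this is at least 75.1-fold lower than in normal and at least 128-fold lower than in cocultured constructs (edgeR adjusted p = 0.381 and 0.453). DESeq2 called both, and limma voom called only that against cocultured constructs. Adamts14 too passed the filter on low counts only through the groups where it was present. Adamts3, with 22 counts in irradiated and 183 in normal constructs, and Tll2, with 3 and 30, also passed through cocultured and normal libraries. For Adamts14, Adamts3 and Tll2 the filter therefore favoured a negative sign in advance. Bmp1, the C-proteinase that Pcolce and Pcolce2 enhance, had 29.2, 44.7 and 67.9 CPM in irradiated, 77.9, 25.2 and 46.8 CPM in cocultured and 62.0, 48.6 and 41.9 CPM in normal libraries. Its groups overlapped, with a log2 fold change of -0.10 ± 0.64 for irradiated against normal constructs.

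The lists nearest the hydroxylases showed no gene at an unadjusted p under 0.05 for irradiated against normal constructs. The 9 other prolyl hydroxylation genes were 5 positive and 4 negative (median 0.14), and the 5 tested genes of lysyl hydroxylation and glycosylation were all positive (median 0.09). Of the 8 chaperone and export genes 1 was positive and 7 were negative (median -0.12). Beside these counts, 5007 of all 11980 genes tested were positive and 6973 negative. Serpinh1, the collagen chaperone HSP47, had 149, 193 and 192 CPM in irradiated, 226, 198 and 221 CPM in cocultured and 263, 223 and 94.4 CPM in normal libraries, with a log2 fold change of -0.12 ± 0.38 against normal. Sec23a, a coat protein of the vesicles that carry procollagen, had 31.7, 50.8 and 26.9 CPM in irradiated, 100.4, 66.0 and 88.4 CPM in cocultured and 83.6, 45.2 and 33.4 CPM in normal libraries. Its irradiated libraries lay below all cocultured ones, with a log2 fold change of -1.22 for irradiated against cocultured constructs, the lowest of this list. For cocultured against normal constructs the log2 fold change of Sec23a was 0.65 ± 0.56 (edgeR adjusted p = 1).

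Among 12 genes that guide or make other crosslinks, 10 were tested. Tgm2, a transglutaminase that links glutamine to lysine, had 105, 92.5 and 74.7 CPM in irradiated, 44.8, 20.5 and 33.6 CPM in cocultured and 22.4, 30.2 and 45.7 CPM in normal libraries. Every irradiated library was above all others, with a log2 fold change of 1.47 ± 0.59 against normal (edgeR adjusted p = 0.483) and 1.46 ± 0.59 against cocultured constructs (edgeR adjusted p = 0.493). Sparc, a matricellular protein that binds collagen, had 6458, 7212 and 7135 CPM in irradiated, 5344, 4861 and 4032 CPM in cocultured and 5074, 4134 and 4148 CPM in normal libraries. Its irradiated libraries were again above all others, with a log2 fold change of 0.64 ± 0.34 against normal (edgeR adjusted p = 0.569), and DESeq2 and limma voom called it (adjusted p = 0.00333 and 0.0235). Both of these tools also called Sparc against cocultured constructs.

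Postn and Tnxb also belong to this list, and the values of Tnxb rested on few libraries. Postn, which encodes periostin, had 29.4, 90.6 and 63.8 CPM in irradiated, 55.9, 49.2 and 60.5 CPM in cocultured and 5.14, 23.0 and 51.2 CPM in normal libraries, with a log2 fold change of 1.06 ± 0.79 for cocultured against normal (edgeR adjusted p = 1). Tnxb, which encodes the matrix protein tenascin-X, had 61 counts in irradiated libraries, all in irradiated 1, 0 in cocultured and 0, 21 and 51 in normal 1, 2 and 3. This is at least 23.7-fold higher in irradiated than in cocultured constructs and at least 51.7-fold lower in cocultured than in normal ones, set against 3 counts over the cocultured group, and its groups overlapped. Col2a1, of the substrate list, had 68 counts in irradiated libraries, all in irradiated 1, against 1 in cocultured and 84 in normal libraries.

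Over the 9 libraries, the genes whose log2 level followed that of Lox most closely were Egr1, Ano8, Cmc1, Nol10 and Anks1. They were among 8124 ranked genes with at least 10 CPM on average, without symbols of predicted genes, clones or pseudogenes. Pearson's r with Lox was 0.908, 0.897, 0.893, 0.892 and 0.892, and Spearman's rho was 0.85, 0.883, 0.9, 0.85 and 0.905. These are the highest of many correlations over few libraries that share their scaling, and they are given as a description. Anks1 was at 0 in irradiated 1 and 3, at most 0.227 CPM in normal and 4.86 to 24.0 CPM in cocultured libraries. Its average rests largely on irradiated 2, at 91.0 CPM. Egr1, an immediate early transcription factor, had 149, 376 and 122 CPM in irradiated, 290.2, 314 and 186 CPM in cocultured and 140.1, 193 and 155 CPM in normal libraries, so that irradiated 2 was highest for both genes.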

How the data were processed

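Total RNA (100 ng) was made into QuantSeq 3′ mRNA-Seq FWD libraries and read as single-end 75 bp reads, per the labels' protocols. The submitters' processing notes name FastQC, STAR, HTSeq and the builds GRCm39 and mm39. The sources used here do not give the annotation, the strand setting or how duplicates were handled, so a gene may hold reads of an overlapping, antisense or near-identical gene. The deposited values are raw whole-number counts per gene symbol, with no normalization, as the file headers and whole-number sums show. Column names carry a number 1 higher than the labels do, and each file's sample is the one GEO records for it. Samples were grouped by their titles.

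edgeR 4.0.16 with limma 3.58.1 in R 4.3.3 kept 11980 genes (filterByExpr), computed TMM factors and fitted 1 quasi-likelihood model with group as its term to all 9 libraries, with Benjamini-Hochberg adjustment over all genes. Genes were called at an adjusted p under 0.05. CPM values are counts per 1000000 of the TMM-scaled library total, and levels of different genes are not compared. Standard errors were derived from each log2 fold change and its F statistic, so an interval restates the test behind its p-value. Interval bounds use the degrees of freedom of each gene, with a median of 12.98. The common biological coefficient of variation was 1.32. Shares carry exact Clopper-Pearson 95% intervals and ratios of summed counts exact intervals, both for counting error only, since PCR copies are not independent molecules, and a count of 0 was read as allowing 3. The steps were tested on data simulated with less spread between libraries than these data have. That test does not show how the steps perform at the spread found here.

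Alternatives were DESeq2 1.42.0, limma voom, RLE and upper quartile factors, library totals, other low-count filters, the 6 libraries of a comparison, a replicate block, each library left out, normal 3 and irradiated 1 left out, mitochondrial genes and Gm26917 removed, and, added after seeing the data, irradiated 2 and 3 left out. The genes and lists were chosen with earlier results of these data known. All 10 genes are named whatever their result. In each comparison the pathway genes named are any called over all genes, the 2 in each direction with the smallest unadjusted p among those tested, and Col1a1, Col1a2, Col3a1, Bmp1 and Serpinh1. For likeness to Lox, the 5 genes with the highest Pearson r of log2 CPM with prior count 2 are named. Symbols of predicted genes, clones and pseudogenes were left out of that ranking. Promoter sequences are from RefSeq build GRCm38.p6, which is not the build of the counts.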

Additional observations from a re-analysis of the deposited data

How the results depend on the processing

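Direction was kept under all 21 alternatives by Pcolce, Pcolce2 and Loxl2 in all 3 comparisons, by Lox and Loxl1 for irradiated against normal, and by Lox and Plod2 for cocultured against normal constructs. For irradiated against normal, log2 fold changes ran from 1.13 to 1.77 for Pcolce (adjusted p 5.19e-04 to 0.680), -6.02 to -3.74 for Loxl2 (0.0166 to 0.690) and -11.31 to -4.62 for Pcolce2 (0.00132 to 0.690). In edgeR, dropping the low-count filter called Loxl2 (adjusted p = 0.0207) and Pcolce (0.0333). Calls among the 9 genes thus rest on the tool, the filter and which irradiated libraries are used, since leaving out irradiated 1, or irradiated 2 and 3, also added calls, and the cause was not tested. Low counts in irradiated constructs limit Loxl2, Pcolce2 and Adamts14.

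The number of the 9 genes called for irradiated against normal, 0 in edgeR, was 3 by DESeq2, 2 with no low-count filter, 2 without irradiated 2 and 3, and 0 to 1 with each library left out. For irradiated against cocultured it was 1 by DESeq2, 1 without irradiated 2 and 3, and 0 to 1 with each library left out. Over all genes, 7 were called for irradiated against normal, against 445 by DESeq2, 25 by limma voom, 130 with no low-count filter, 0 from the 6 libraries compared, 20 without normal 3 and irradiated 1, 190 without irradiated 2 and 3, and 6 to 147 with each library left out, the highest without irradiated 1 (13, 14 and 17 without irradiated 2, normal 2 and irradiated 3). In the comparison of cocultured with normal constructs, 0 were called, against 84 by DESeq2, 52 with no low-count filter, 1 without normal 3 and irradiated 1, 96 without irradiated 2 and 3, and 0 to 0 with each library left out. For irradiated against cocultured, 4 were called, against 473 by DESeq2, 105 by limma voom, 9 on library totals, 153 with no low-count filter, 0 from the 6 libraries compared, 21 without normal 3 and irradiated 1, 449 without irradiated 2 and 3, and 1 to 97 with each library left out, the highest without irradiated 1.

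Same-numbered libraries did not deviate together (correlations of -0.071 to 0.054 over the 3 comparisons), and the labels state no pairing. Low correlations over so few libraries cannot exclude that the numbers pair the samples. With the replicate number as a block, 23, 0 and 12 genes were called for irradiated against normal, cocultured against normal and irradiated against cocultured, none of them among the 9, and Loxl3 turned to -0.021 for cocultured against normal.

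Values near 0 changed sign. For irradiated against normal, Col1a1 was 0.052 by DESeq2 and with RLE factors, 0.059 with upper quartile factors, 0.40 by limma voom, 0.80 on library totals and 1.44 without normal 3 and irradiated 1. On library totals Plod1 was 0.092, Bmp1 0.35, Col3a1 0.17 and Serpinh1 0.22. Without normal 3 and irradiated 1, Plod1 was 0.072, Plod2 -0.132, Bmp1 0.036 and Loxl3 -0.021, and Plod2 was -0.002 by limma voom. Without irradiated 2 and 3, P4ha1 was 0.05 and Col1a2 -0.33. For cocultured against normal, Loxl3 was -0.10 by limma voom, P4ha1 0.39 and Plod1 0.04 on library totals, and Loxl1 -0.30 without normal 3 and irradiated 1. For irradiated against cocultured, Loxl3 was -0.045 on library totals and -0.061 without normal 3 and irradiated 1, and P4ha1 was 0.15 and Plod1 -0.44 without irradiated 2 and 3.

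With each library left out in turn, values that changed sign for irradiated against normal ranged over -0.14 to 0.16 for Plod2, -0.46 to 0.15 for Bmp1, -1.11 to 1.18 for Col1a1, -0.20 to 0.28 for Col1a2, -0.483 to 0.031 for Col3a1 and -0.44 to 0.19 for Serpinh1. For cocultured against normal they ranged over -0.30 to 0.36 for Loxl1, -0.73 to 0.53 for Loxl3 and -0.66 to 0.19 for P4ha1, and for irradiated against cocultured over -0.508 to 0.018 for Lox, -0.18 to 1.06 for Loxl3, -0.69 to 0.21 for P4ha1 and -0.14 to 0.40 for Plod1. On library totals the median of all genes moved by 0.37, 0.53 and -0.17 in the 3 comparisons.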
